A study of Rattus with 6 samples.

Results

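The SR proteins and the heterogeneous nuclear ribonucleoproteins (hnRNPs) were taken as every protein-coding gene of the deposited count table whose symbol was Srsf with a number, Tra2a or Tra2b, or began with Hnrnp. The rule gave 32 genes of 21378 in the table, which held 17088 protein-coding genes. They were 13 SR proteins, with Tra2a and Tra2b counted among them, and 19 hnRNP genes. The rule used symbols and no measured value, though it was chosen with earlier results of these data known. Hnrnpa0, Hnrnpcl1 and Srsf8, which RefSeq also names in rat, were not analysed here.

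SR proteins carry RNA recognition motifs and a tail rich in arginine and serine, and they bind exonic enhancers, where they mostly promote use of the exon. The hnRNPs coat nuclear RNA, and many of them repress exons, so the balance between both families helps to set exon choice. Many genes of both families limit their own messenger RNA through exons that carry a premature stop codon or through retained introns, transcripts that nonsense-mediated decay removes or the nucleus keeps. A gene-level count sums all of these transcripts and cannot separate them.

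The study sequenced polyadenylated RNA from a commercial rat cardiac fibroblast line, the cells that make the connective tissue of the heart, in 3 siNONO libraries and 3 siCtrl libraries. The siNONO cells were transfected with an siRNA against Nono. The siCtrl libraries carry that name in their titles, while another label says that an empty vector was transfected, so what the control cells received is not settled. Both groups are the same line, which is 1 source of cells. NONO is an RNA- and DNA-binding protein of the nucleus and of paraspeckles, and the series title poses the question of its role in alternative splicing. The time of 48 h is given for RT-qPCR and western blotting, with no separate time for sequencing. No label says that the libraries of a group came from separate cultures, so the p-values measure the spread between these libraries, which may be technical.

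The libraries held 29692746 to 33365588 counts in siNONO and 27792357 to 32869992 counts in siCtrl. Values below are CPM, counts scaled to one library size with edgeR's TMM factors, and levels set between genes are the authors' FPKM, which divide by gene length. In FPKM the siNONO values ran slightly higher over all genes. The median log2 fold change was 0.03 with log2(FPKM + 1), against 0.00 with TMM. Nono on chromosome X was at 69.9, 76.1 and 73.6 CPM in siNONO libraries, against 237, 233 and 247 CPM in siCtrl libraries. The groups were far apart, and Nono stood at 30.7% of the siCtrl level (log2 fold change -1.70 ± 0.05 SE, edgeR quasi-likelihood test, adjusted p = 4.57e-11). All 11 fibroblast markers were in the table, and their FPKM summed to 7533 to 7653 in siNONO and 7497 to 8108 in siCtrl. Of them, 1 rose, Ddr2 (log2 fold change 0.13, edgeR adjusted p = 0.0232), and 4 fell. The falls were Lum (-0.91, adjusted p = 1.68e-07), Dcn (-0.32, adjusted p = 0.000694), Tcf21 (-0.22, adjusted p = 0.00537) and Vim (-0.19, adjusted p = 0.00222). Leukocyte markers summed to 128 to 134 FPKM in siNONO and 128 to 135 FPKM in siCtrl, mostly from Cd68, at 106 FPKM in siNONO and 105 FPKM in siCtrl. Of 5 tested leukocyte markers, 2 fell, the macrophage genes Adgre1 (log2 fold change -0.50, edgeR adjusted p = 2.61e-05) and Csf1r (-0.30, adjusted p = 0.00106). Endothelial markers summed to 3.99 to 4.24 FPKM in siNONO and 3.38 to 3.70 FPKM in siCtrl, with Cdh5 and Kdr at 0.1 FPKM or less in every library. Most of the sum was Tek, at 3.30 FPKM in siNONO and 2.71 FPKM in siCtrl. Of 5 tested endothelial markers, only Tek was called. It rose (0.24, adjusted p = 0.0250), though not past the threshold without siCtrl 1 (0.20, adjusted p = 0.0660). Mural markers summed to 18.7 to 20.3 FPKM in siNONO and 21.5 to 23.7 FPKM in siCtrl, mostly from Kcnj8. Of 6 tested mural markers, 1 rose and 3 fell: Des rose (0.36, adjusted p = 0.0149), and Myh11 (-0.88, adjusted p = 0.000416), Cnn1 (-0.88, adjusted p = 0.000769) and Kcnj8 (-0.28, adjusted p = 0.00209) fell. Cardiomyocyte markers summed to 71.1 to 76.9 FPKM in siNONO and 91.9 to 99.9 FPKM in siCtrl, nearly all from Tnnt2, at 72.7 FPKM in siNONO and 95.6 FPKM in siCtrl. Tnnt2 fell (-0.45, adjusted p = 1.29e-05), the only call of 3 tested cardiomyocyte markers. The defining gene Myh6 averaged 0.00667 FPKM in siNONO and 0.01 FPKM in siCtrl, and Actc1 0 FPKM in siNONO and 0.02 FPKM in siCtrl. Of the tested markers, 45.5% were called for fibroblasts, 40% for leukocytes, 20% for endothelial, 66.7% for mural and 33.3% for cardiomyocyte genes. Among all genes tested the share was 32.1%. The part of these cells in the results below was not tested.

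One library stood apart for the SR proteins. The siCtrl 1 library held the lowest of the 6 values for 8 of 13 SR proteins (61.5%), 6 of 19 hnRNP genes (31.6%) and 21.6% of all genes tested. Relative to the mean of siCtrl 2 and 3, its median log2 difference was -0.12 over the SR proteins, -0.01 over the hnRNP genes and 0.00 over all genes. The SR counts and the values of several SR proteins are therefore given with and without it. What set this library apart was not tested.

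Measured per length, the hnRNP genes summed to more than the SR proteins, at 1207 against 378 FPKM in siNONO and 1087 against 342 FPKM in siCtrl. Hnrnpab, which binds single-stranded DNA and RNA, averaged 217 ± 5.21 FPKM in siNONO and 201 ± 5.42 FPKM in siCtrl (SD, n = 3 each). Hnrnpa1, the best studied splicing repressor of the family, averaged 211 ± 5.75 FPKM in siNONO and 166 ± 2.95 FPKM in siCtrl. The libraries of these top genes overlapped in siNONO and were apart in siCtrl. Hnrnpk, a KH-domain protein that binds stretches of C, came next at 94.8 ± 2.37 FPKM in siNONO and 89.8 ± 1.71 FPKM in siCtrl, and Hnrnpr was lowest at 8.84 ± 0.298 FPKM in siNONO and 7.84 ± 1.24 FPKM in siCtrl. Hnrnpf ranked 5 of 19 in siNONO at 76.1 ± 3.83 FPKM and 9 of 19 in siCtrl at 52.6 ± 2.15 FPKM.

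Among the SR proteins, Srsf2 led with 81.2 ± 3.93 FPKM in siNONO and 61.0 ± 6.23 FPKM in siCtrl, followed by Srsf5 with 63.1 ± 3.14 FPKM in siNONO and 57.3 ± 5.88 FPKM in siCtrl. The Srsf2 and Srsf5 libraries were apart in siNONO and overlapped in siCtrl. Srsf6, Srsf3 and Tra2b formed the next step at 43.0, 42.4 and 38.9 FPKM in siNONO and 38.9, 40.7 and 36.8 FPKM in siCtrl. Srsf12 was close to absent at 0.263 ± 0.0153 FPKM in siNONO and 0.277 ± 0.0451 FPKM in siCtrl. The order of the genes is drawn in the plot of levels by library.

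**Figure D1:**
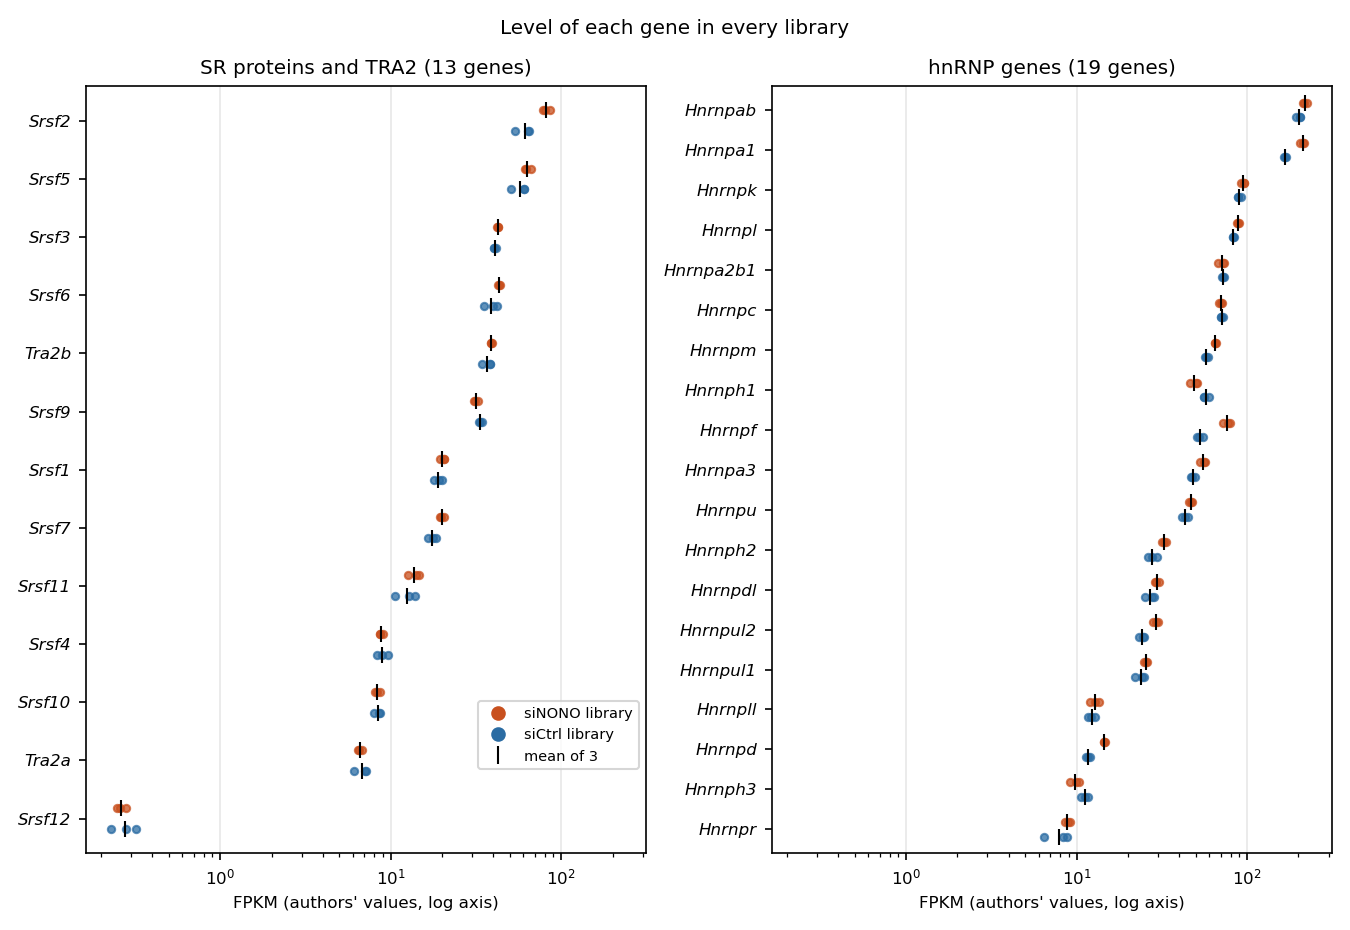
FPKM of each SR protein (left) and hnRNP gene (right) in every library, on a log axis, with siNONO above siCtrl for each gene and a tick at the mean of 3. The 31 genes other than Srsf12 lie between 6.07 and 223 FPKM in every library, and Hnrnpf and Srsf2 show a gap between the groups.

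The knockdown went with small changes in single genes of both families. Hnrnpf, Srsf2, Hnrnpa1, Hnrnpd and Hnrnpul2 were higher in siNONO, and Hnrnph1 and Hnrnph3 were lower. Of the 32 genes, 9 rose and 3 fell at an edgeR adjusted p below 0.05, which is 37.5% against 32.1% of all 14412 genes tested. All 32 passed the filter on low counts. Raised genes were 28.1% of the members against 16.2% of all genes, and lowered genes 9.38% against 15.9%. The members are abundant, with 31 of 32 at a mean of 20 CPM or more. Among all genes at that level 43.1% were called, with 21.5% raised and 21.6% lowered. The overall share called is thus near the background. With libraries scaled by their totals alone, all log2 fold changes shifted up by a median of 0.05, the members were split into 11 raised and 2 lowered, and 65.5% of all calls were rises against 50.5% with TMM. In bulk RNA, a smaller share of cells with a transcript and less of it per cell cannot be told apart.

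Among the hnRNP genes, 7 rose and 2 fell of 19 (47.4%, near the 43.1% of all genes at a mean of 20 CPM or more), with a median log2 fold change of 0.06 and 15 genes above 0. The SR proteins had 2 raised and 1 lowered of 13 (23.1%), a median of 0.03 and 8 genes above 0. The difference between the families was not tested. The median over all genes was 0.00. The median size of change without sign was 0.12 in hnRNP genes and 0.09 in SR proteins, against 0.15 over all genes and 0.12 over all genes with a mean of 20 CPM or more. The libraries of the groups did not overlap for 14 of the 32 members (43.8%), with siNONO above for 9 and below for 5. The same held for 45% of all genes tested. It held for 3853 of 7027 genes with a mean of 20 CPM or more, a larger share than in the members. Without siCtrl 1, the hnRNP counts were again 7 and 2, and the SR counts were 1 raised (Srsf2) and 1 lowered (Tra2a) with a median of 0.00.

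**Figure D2:**
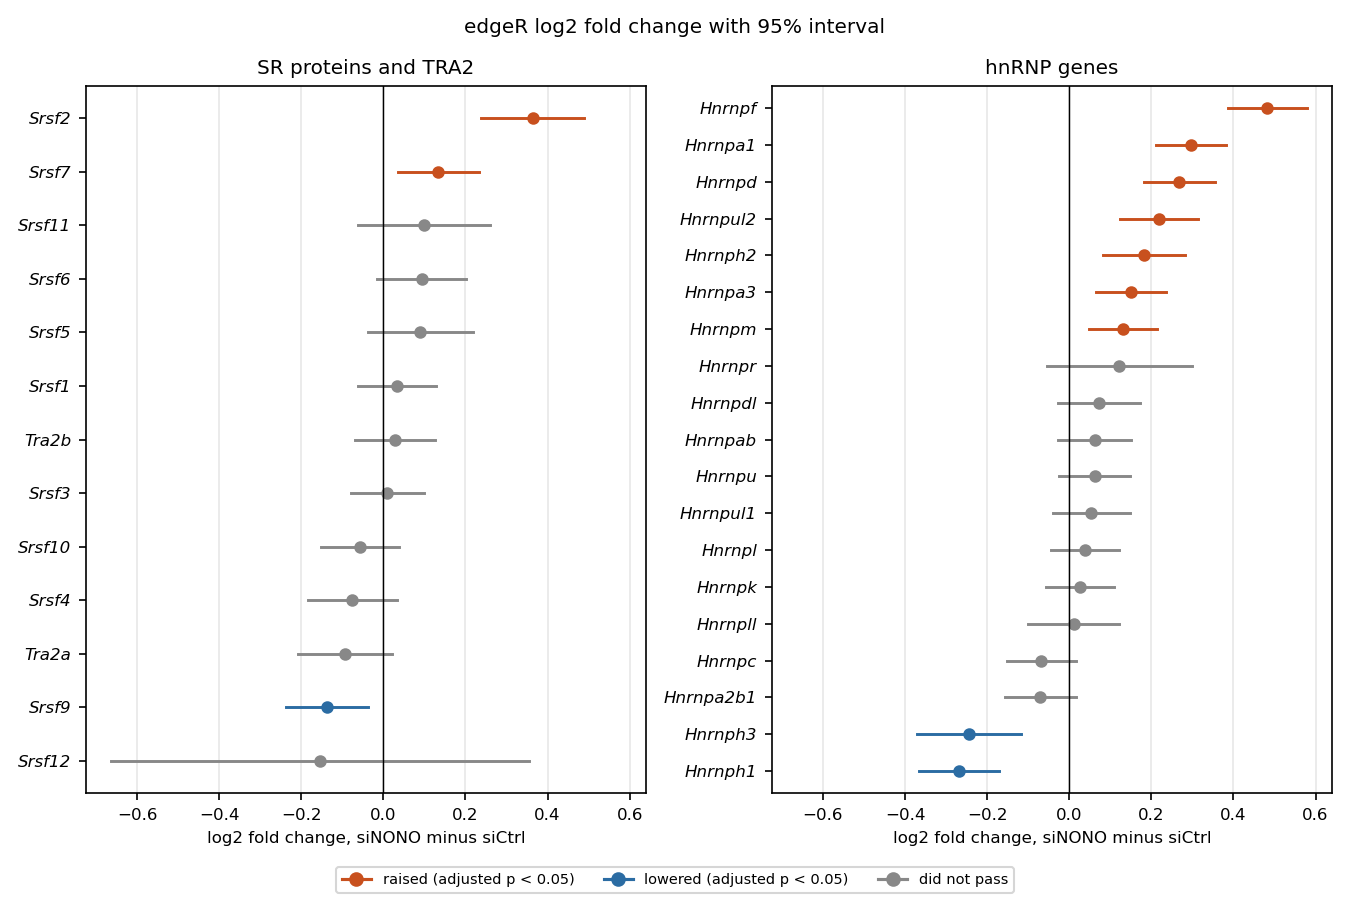
Log2 fold change of siNONO over siCtrl with its 95% interval from edgeR for each SR protein (left) and hnRNP gene (right), ordered by size. The values run from -0.27 for Hnrnph1 to 0.48 for Hnrnpf, and most intervals of SR proteins cross 0.

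Srsf2 on chromosome 10, also called SC35, is a nuclear SR protein that acts in spliceosome assembly and in release of paused RNA polymerase II. It was at 274, 252 and 259 CPM in siNONO libraries, against 182, 211 and 216 CPM in siCtrl libraries. Every siNONO library lay above every siCtrl library, and siCtrl 1 was the lowest. Srsf2 was 28.6% higher (log2 fold change 0.36 ± 0.06 SE, edgeR adjusted p = 0.000323), and without siCtrl 1 the value was 0.29 with an adjusted p of 8.67e-05. Its share of the summed FPKM of the family was 21.5% in siNONO and 17.9% in siCtrl.

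Srsf7 on chromosome 6 and Srsf3 on chromosome 20 are close relatives that couple processing of 3′ ends to export of messenger RNA. Srsf7 was at 67.5, 65.0 and 65.7 CPM in siNONO libraries, against 57.6, 62.6 and 60.3 CPM in siCtrl libraries. The groups did not overlap, but siNONO 2 and siCtrl 2 were close. Srsf7 rose by 0.13 ± 0.05 on the log2 scale (edgeR adjusted p = 0.0363), and without siCtrl 1 it was 0.10 with an adjusted p of 0.0971. The call was also lost with DESeq2 (adjusted p = 0.0786) and with a replicate block in the edgeR fit (adjusted p = 0.0920). It was lost as well when any siNONO library or siCtrl 3 was left out, with adjusted p between 0.0581 and 0.149. Srsf3 was at 131, 133 and 131 CPM in siNONO libraries, against 136, 128 and 128 CPM in siCtrl libraries. Its groups overlapped, with siCtrl 1 the highest of all (log2 fold change 0.01 ± 0.04, 95% interval -0.08 to 0.10, edgeR adjusted p = 0.885).

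Srsf9 on chromosome 12 is the closest relative of Srsf1, the first SR protein to be described, which acts on constitutive and alternative exons. It was at 44.5, 45.9 and 47.3 CPM in siNONO libraries, against 52.4, 49.1 and 50.0 CPM in siCtrl libraries. Every siNONO library lay below every siCtrl library. The log2 fold change was -0.14 ± 0.05 (edgeR adjusted p = 0.0376), and the call held in only 3 of 14 alternatives. Without siCtrl 1 the value was -0.11 with an adjusted p of 0.0963, and with total library sizes -0.09 with 0.178. Srsf1 had a log2 fold change of 0.03 (95% interval -0.06 to 0.13, adjusted p = 0.608).

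The Srsf4, Srsf5 and Srsf6 group shares a pair of RNA recognition motifs and a long arginine-serine tail, and none of the 3 passed the test. Srsf5 on chromosome 6 was at 232, 217 and 211 CPM in siNONO libraries, against 185, 216 and 218 CPM in siCtrl libraries. Only siCtrl 1 was clearly lower than the others (log2 fold change 0.09 ± 0.06, 95% interval -0.04 to 0.22, edgeR adjusted p = 0.269), and without it the value was 0.02. Srsf6 likewise was at 165, 164 and 162 CPM in siNONO libraries, against 141, 163 and 156 CPM in siCtrl libraries, with a log2 fold change of 0.09 that was 0.04 without siCtrl 1. Srsf4 was at -0.08 (adjusted p = 0.277), and at -0.11 without siCtrl 1 (adjusted p = 0.0930).

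Srsf11, which promotes microexons in neurons, followed the same library: 105, 91.8 and 101 CPM in siNONO libraries, against 80.1, 103 and 95.4 CPM in siCtrl libraries. Its log2 fold change of 0.10 (95% interval -0.06 to 0.26) was 0.01 without siCtrl 1. Srsf10, a repressor of splicing when dephosphorylated, was at -0.06 (adjusted p = 0.358). Its relative Srsf12 was at -0.15 ± 0.24 (95% interval -0.66 to 0.35) at a mean of 0.894 CPM, a depth at which a change of the size seen elsewhere in the family could not be detected.

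Tra2a and Tra2b, the homologues of the Drosophila sex-determination factor Transformer-2, bind enhancers rich in GAA. Tra2b had a log2 fold change of 0.03 (adjusted p = 0.669), and of -0.01 without siCtrl 1. Tra2a was at 90.9, 87.0 and 88.2 CPM in siNONO libraries, against 86.2, 97.4 and 100.01 CPM in siCtrl libraries. The siCtrl 1 library was below all siNONO libraries and the other siCtrl libraries were above them. Its log2 fold change was -0.09 (adjusted p = 0.205), and -0.15 without siCtrl 1, where it passed the test (edgeR adjusted p = 0.0119). The SR calls near the threshold thus changed when siCtrl 1 was left out, and the map of libraries shows its place.

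**Figure D3:**
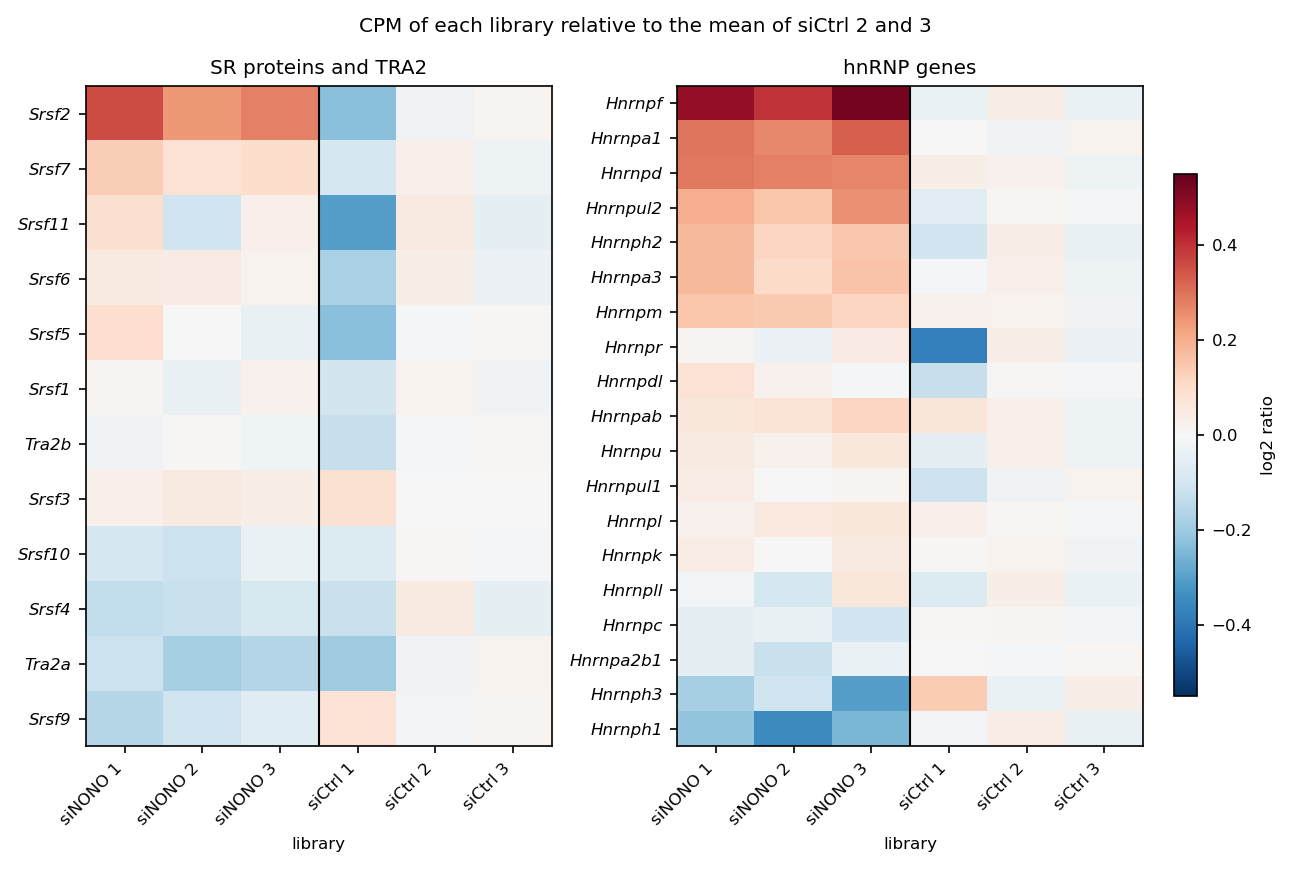
CPM of each library as a log2 ratio to the mean of siCtrl 2 and 3, for SR proteins (left) and hnRNP genes (right), red for higher and blue for lower; Srsf12 is left out because its mean was below 5 CPM. The siCtrl 1 column is blue for most SR proteins and for Hnrnpr, while Hnrnpf, Hnrnpa1, Hnrnpd and Hnrnph1 differ in all 3 siNONO columns.

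Within the hnRNP F/H genes, which bind runs of G and share a type of RNA recognition motif, 2 members rose and 2 fell. Hnrnpf on chromosome 4 was at 239.9, 227 and 248 CPM in siNONO libraries, against 168, 176 and 167 CPM in siCtrl libraries. The groups were far apart, and Hnrnpf was 39.7% higher, the largest change of the 32 genes (log2 fold change 0.48 ± 0.04, edgeR adjusted p = 2.72e-06). Hnrnph1 on chromosome 10 was at 139.9, 128 and 136 CPM in siNONO libraries, against 161, 167 and 158 CPM in siCtrl libraries. Here every siNONO library was below every siCtrl library (log2 fold change -0.27 ± 0.05, edgeR adjusted p = 0.000472).

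Hnrnph2, the copy of Hnrnph1 on chromosome X, was at 88.9, 85.2 and 87.0 CPM in siNONO libraries, against 73.0, 80.7 and 76.5 CPM in siCtrl libraries. It moved the other way from Hnrnph1, with no overlap between groups (log2 fold change 0.18 ± 0.05, edgeR adjusted p = 0.00845). Without siNONO 1 the value was 0.16 with an adjusted p of 0.0535. Hnrnph3 on chromosome 20, a shorter member, was at 40.7, 42.9 and 37.5 CPM in siNONO libraries, against 50.9, 45.1 and 47.4 CPM in siCtrl libraries. It was lower in every siNONO library (log2 fold change -0.24 ± 0.06, edgeR adjusted p = 0.00604), and the limma test on log2(FPKM + 1) gave -0.18 with an adjusted p of 0.0763.

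The ratio of one gene to another within a library does not depend on how libraries are scaled. The FPKM ratio of Hnrnpf to Hnrnph1 was 1.51, 1.56 and 1.59 in siNONO libraries, against 0.913, 0.926 and 0.930 in siCtrl libraries. Hnrnpf was thus above Hnrnph1 in all siNONO libraries and below it in all siCtrl libraries, a log2 difference of 0.75. The ratio of Hnrnph2 to Hnrnph1 was 0.667 ± 0.0186 in siNONO and 0.488 ± 0.0180 in siCtrl (SD, n = 3 each), a log2 difference of 0.45. Hnrnph3 and Hnrnph1 kept overlapping ratios of 0.200 ± 0.0211 in siNONO and 0.196 ± 0.0157 in siCtrl. With 3 libraries a group, the smallest two-sided exact permutation p is 0.1 (0.131 here after Benjamini-Hochberg adjustment over 17 ratios of related genes). The ratios of Hnrnpf and Hnrnph2 to Hnrnph1 reached it, as did most others, 13 of the 17 in all. The ratios were chosen after the values were seen, and no share over other gene pairs was computed. This count is therefore no result about the families. For single genes, the groups did not overlap for 45% of all genes tested.

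**Figure D4:**
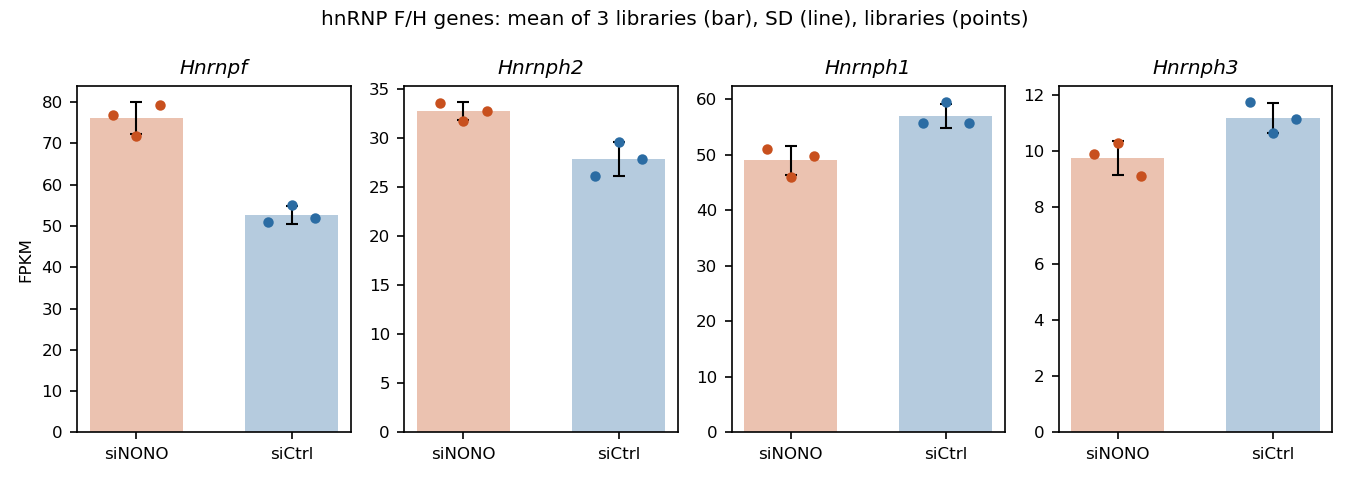
FPKM of the 4 hnRNP F/H genes in siNONO (left bar) and siCtrl (right bar), as the mean of 3 libraries with the SD and each library as a point; each panel has its own axis from 0. Hnrnpf and Hnrnph2 are higher in siNONO, at 76.1 and 32.7 FPKM against 52.6 and 27.8 FPKM, and Hnrnph1 and Hnrnph3 are lower, at 49.0 and 9.77 FPKM against 57.0 and 11.2 FPKM.

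The A/B group, which binds splicing silencers, rose in part. Hnrnpa1 on chromosome 7 was at 555, 543 and 567 CPM in siNONO libraries, against 451, 446 and 458 CPM in siCtrl libraries. The groups were tight and far apart (22.9% higher, log2 fold change 0.30 ± 0.04, edgeR adjusted p = 6.36e-05). RefSeq names 51 pseudogenes of Hnrnpa1, the most of any member, and how reads shared with them were assigned is not given in the sources used here. Hnrnpa2b1, a close relative that also sorts microRNAs and messenger RNAs in the cytoplasm, was at -0.07 (95% interval -0.16 to 0.02, adjusted p = 0.198). The FPKM ratio of Hnrnpa1 to Hnrnpa2b1 was 2.98 ± 0.0403 in siNONO and 2.31 ± 0.0169 in siCtrl, a log2 difference of 0.37.

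Hnrnpa3 averaged 317 ± 7.91 CPM in siNONO and 286 ± 5.35 CPM in siCtrl, and rose by 0.15 on the log2 scale (edgeR adjusted p = 0.0104). The call was lost without siNONO 1 (0.13, adjusted p = 0.0722) and with a replicate block in the edgeR fit (0.15, adjusted p = 0.0509). A pair of genes that the deposited data describe as hnRNP A3-like held counts equal to 4.04% and 3.45% of those of Hnrnpa3. LOC100911361 did not pass the test (0.24, adjusted p = 0.0610) and LOC120096281 rose (0.38, adjusted p = 0.00742). Reads that fit more than 1 of these copies make their values uncertain.

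In the D group, Hnrnpd on chromosome 14, or AUF1, binds AU-rich elements and controls decay of messenger RNA. It was at 113, 112 and 111 CPM in siNONO libraries, against 94.2, 93.8 and 90.5 CPM in siCtrl libraries. The libraries of each group nearly coincided and the groups were apart (log2 fold change 0.27 ± 0.04, edgeR adjusted p = 0.000177). Hnrnpdl lies next to Hnrnpd in the RefSeq gene order, with 0 protein-coding genes between them, and had a log2 fold change of 0.07 (adjusted p = 0.261). Their FPKM ratio was 0.494 ± 0.0115 in siNONO and 0.432 ± 0.0285 in siCtrl. Hnrnpab on chromosome 10 had the highest mean FPKM of the members but lay below Hnrnpa1 in CPM. It was at 400.5, 405 and 418 CPM in siNONO libraries, against 403, 392 and 377 CPM in siCtrl libraries. Its groups overlapped through siCtrl 1 (log2 fold change 0.06 ± 0.04, 95% interval -0.03 to 0.15, edgeR adjusted p = 0.279). With total library sizes Hnrnpab passed the test (0.11, adjusted p = 0.0389).

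The U group consists of scaffold attachment factors that bind chromatin and RNA, with Hnrnpul1 and Hnrnpul2 known from DNA repair. Hnrnpul2 on chromosome 1 was at 82.0, 79.4 and 85.1 CPM in siNONO libraries, against 68.8, 72.1 and 70.9 CPM in siCtrl libraries. It was higher in every siNONO library (log2 fold change 0.22 ± 0.04, edgeR adjusted p = 0.00176). Hnrnpu and Hnrnpul1 had log2 fold changes of 0.06 and 0.05 (adjusted p = 0.261 and 0.378). The FPKM ratio of Hnrnpul2 to Hnrnpul1 was 1.14 ± 0.0361 in siNONO and 1.02 ± 0.0317 in siCtrl, with no overlap.

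Of the remaining hnRNP genes, Hnrnpm, which binds GU-rich RNA, was the only one past the threshold. It averaged 186 ± 2.31 CPM in siNONO and 169.8 ± 2.76 CPM in siCtrl (log2 fold change 0.13, edgeR adjusted p = 0.0190). The call was lost without siNONO 1, siNONO 2 or siCtrl 3 (adjusted p = 0.0950, 0.0580 and 0.0681) and with a replicate block in the edgeR fit (adjusted p = 0.0700). Hnrnpk on chromosome 17 was at 349.6, 339 and 352 CPM in siNONO libraries, against 342, 344 and 336 CPM in siCtrl libraries. Its groups overlapped (log2 fold change 0.03 ± 0.04, 95% interval -0.06 to 0.11, edgeR adjusted p = 0.630). Hnrnpc, which binds runs of U and shields them from other splicing factors, was lower in all siNONO libraries but did not pass (-0.07, 95% interval -0.15 to 0.02, adjusted p = 0.207). Hnrnpl, which binds CA repeats, was at 0.04 and its relative Hnrnpll at 0.01 (adjusted p = 0.480 and 0.903).

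Hnrnpr, an RNA-binding protein of nucleus and axon, had a log2 fold change of 0.12 that was 0.01 without siCtrl 1, where it stood at 21.1 CPM against 28.04 and 26.8 CPM in the other siCtrl libraries. Its close relative Syncrip, or hnRNP Q, fell by 0.30 on the log2 scale (edgeR adjusted p = 0.000132). The FPKM ratio of Hnrnpr to Syncrip was 1.21 ± 0.00485 in siNONO and 0.898 ± 0.110 in siCtrl. In siCtrl 1 it was 0.771, and in siCtrl 2 and 3 it was 0.960 and 0.964, all below the siNONO libraries.

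Summed over the family, the hnRNP genes took 0.420%, 0.404% and 0.422% of all counts in siNONO libraries, against 0.368%, 0.385% and 0.375% in siCtrl libraries. The SR proteins took 0.149%, 0.140% and 0.144% in siNONO libraries, against 0.120%, 0.138% and 0.135% in siCtrl libraries. Both sums were higher in every siNONO library, and for the SR proteins the gap between siNONO 2 and siCtrl 2 was narrow. These shares are not TMM-scaled. In TMM-scaled CPM the hnRNP genes summed to 4107, 4012 and 4128 in siNONO libraries, against 3812, 3868 and 3800 in siCtrl libraries. The SR proteins summed to 1452, 1395 and 1412 in siNONO libraries, against 1247, 1385 and 1373 in siCtrl libraries. For the SR proteins siCtrl 1 was far below the other siCtrl libraries, which lay close to siNONO 2. Such sums weigh abundant genes most and do not show a rise of each member. Srsf2 averaged 261 CPM in siNONO and 203 CPM in siCtrl, while 10 of 13 SR proteins were not called. Hnrnpa1 averaged 555 CPM in siNONO and 452 CPM in siCtrl, and Hnrnpf 238 CPM in siNONO and 170 CPM in siCtrl. Of the 19 hnRNP genes, 10 were not called. In summed FPKM, where values over all genes also ran slightly higher in siNONO, the hnRNP genes averaged 1207 ± 25.3 in siNONO and 1087 ± 20.2 in siCtrl (SD, n = 3 each). Hnrnpa1 made up 17.5% of that sum in siNONO and 15.3% in siCtrl, and Hnrnpf made up 6.30% in siNONO and 4.84% in siCtrl.

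**Figure D5:**
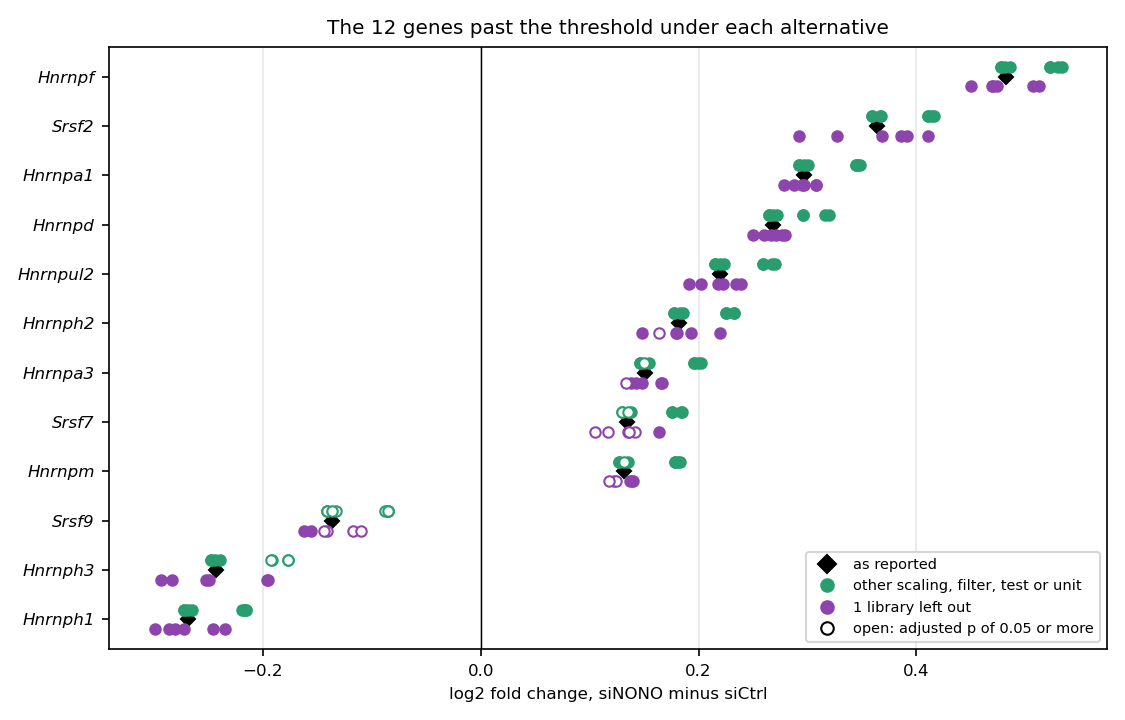
Log2 fold change of the 12 called genes as reported (diamond), under other scalings, filters, tests or units (green) and with 1 library left out (purple); open points have an adjusted p of 0.05 or more. No gene changes sign, and Hnrnpf, Srsf2, Hnrnpa1, Hnrnpd, Hnrnpul2 and Hnrnph1 have filled points throughout.

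Genes that act on these proteins, or belong to them under other names, were read from 3 lists. The first held 11 tested genes, kinases and importers of the families and the phosphatase subunit Ppp1r8. Of these, 3 rose and 1 fell (36.4%, against 32.1% of all genes and 43.1% of those at a mean of 20 CPM or more). The median log2 fold change was 0.07, and 0.01 without siCtrl 1. Srpk2, a kinase of SR proteins, averaged 50.7 ± 0.643 CPM in siNONO and 44.9 ± 0.154 CPM in siCtrl (0.18 ± 0.04, edgeR adjusted p = 0.00596). Dyrk1a, a nuclear kinase that phosphorylates splicing factors, also rose (0.15, adjusted p = 0.0350), though not without siCtrl 1. Tnpo3, which imports SR proteins into the nucleus, rose as well (0.13, adjusted p = 0.0280). Tnpo1, which imports the hnRNP A1 protein, averaged 102 ± 3.98 CPM in siNONO and 121 ± 3.98 CPM in siCtrl and fell (-0.25 ± 0.04, edgeR adjusted p = 0.000807). Without siCtrl 1, the list had 2 raised and 2 lowered, with Clk1 as the second fall (-0.15, adjusted p = 0.0191).

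Of 13 hnRNP genes of other names, 5 rose and 2 fell (53.8%, against 32.1% of all genes and 43.1% of those at a mean of 20 CPM or more), with a median of 0.04 that was 0.01 without siCtrl 1. Pcbp3, a protein that binds stretches of C, averaged 7.78 ± 0.869 CPM in siNONO and 5.67 ± 0.301 CPM in siCtrl (0.45 ± 0.11, edgeR adjusted p = 0.00517). Cirbp, the cold-inducible RNA-binding protein, averaged 37.9 ± 1.19 CPM in siNONO and 30.9 ± 1.18 CPM in siCtrl (0.29 ± 0.05, adjusted p = 0.000524). Rbmx, or hnRNP G, fell beside Syncrip (-0.16 ± 0.05, adjusted p = 0.0417). Without siCtrl 1 the counts were 4 and 2.

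Of 21 SR-related genes, which carry arginine-serine stretches but lie outside the numbered SR proteins, 5 rose and 0 fell. These 23.8% were below the 32.1% of all genes and the 43.1% of those at a mean of 20 CPM or more. The median was 0.08, and 0.04 without siCtrl 1. Pnn averaged 44.8 ± 3.84 CPM in siNONO and 36.3 ± 6.08 CPM in siCtrl (0.30 ± 0.10, edgeR adjusted p = 0.0272), and Srek1 averaged 61.4 ± 3.07 CPM in siNONO and 52.2 ± 6.68 CPM in siCtrl (0.23 ± 0.07, adjusted p = 0.0268). The siCtrl 1 library was the lowest of 6 for 16 of these 21 genes (76.2%), with a median log2 difference of -0.16 from the other siCtrl libraries. Without it, Pnn was at 0.17 (adjusted p = 0.0507) and Srek1 at 0.14 (adjusted p = 0.0588), and 2 genes passed, Bclaf1 (0.16, adjusted p = 0.00887) and Scaf11 (0.15, adjusted p = 0.0290), both raised.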

How the data were processed

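Raw read counts per gene, whole numbers in the deposited count table, were the basis of all tests. The deposited FPKM values, per length and per library as the authors computed them, gave levels between genes. The build was mRatBN7.2, and the tools named were HISAT2 and edgeR, per the submitters' processing notes. How reads were counted, by strand or not, and where shared reads went is not given in the sources used here, although the kit was stranded per the labels' protocols. Pseudogenes of 16 members (111 in the RefSeq table of GRCr8, used for names and order alone) and overlapping genes are therefore uncertain. There were 0 columns of other samples. Replicates were no copies of each other (chi-square per degree of freedom 3.18 to 7.58).

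In R 4.3.3, edgeR 4.0.16 (filterByExpr, TMM, glmQLFit, glmQLFTest, 4 residual degrees of freedom, coefficient of variation 4.82%) compared siNONO with siCtrl, two-sided, with Benjamini-Hochberg adjustment over 14412 genes and a threshold of 0.05. Every adjusted p without another name is from this fit; SE is that of the log2 fold change. Alternatives used DESeq2 1.42.0 and limma 3.58.1 on log2(FPKM + 1). The code was tested on simulated counts. Given in full were, per family, up to 5 largest rises and 5 largest falls past the threshold at a mean of at least 5 CPM, the 3 genes highest in FPKM, and Nono; from each other list, up to 2 rises and 2 falls at any level. Genes given beyond this, such as Srsf6, Srsf11, Tra2a, Dyrk1a, Tnpo3, Bclaf1 and Scaf11, were chosen after their values were seen, as was the use of ratios. The members and lists were chosen with earlier results of these data known. Figures used Python 3.11.15 and matplotlib 3.10.9. The list of decay factors is not reported here.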

Additional observations from a re-analysis of the deposited data

How the results depend on the processing

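Each of 6 libraries was left out in turn, and 8 other settings and a threshold of 0.01 were tried. Of 447 values of single members, 415 kept their direction and side of the threshold, 27 lost the call, 5 gained it and 0 called values changed sign; 6 values of 3 uncalled genes (Hnrnpll, Tra2b, Srsf3) changed sign. A set of 6 members (Hnrnpf, Srsf2, Hnrnpa1, Hnrnpd, Hnrnpul2, Hnrnph1) passed in all 14 and 16 members in none. SR proteins raised numbered 1 with DESeq2, a replicate block or a threshold of 0.01, and 1 to 2 with a library left out. SR proteins lowered numbered 0 with total library sizes, no filter, DESeq2, log2(FPKM + 1), log2(FPKM + 0.1), a filter of 1 FPKM, the replicate block or 0.01, and 0 to 1 with a library left out. The hnRNP genes raised numbered 4 to 7 with a library left out (4 without siNONO 1), and those lowered 1 with log2(FPKM + 1) or log2(FPKM + 0.1). At 0.01, 2852 of all genes were called. Rises were 63.9% of all calls with log2(FPKM + 1), 64.3% with log2(FPKM + 0.1) and 65.4% with the FPKM filter. Nono stayed between -1.74 and -1.62. Equal replicate numbers did not pair libraries (correlations of deviations -0.0861 to -0.00683); the replicate block called 3757 genes, with 6 members raised and 2 lowered. List counts without siCtrl 1 were chosen after seeing the data. Srsf12 has no value under the FPKM filter.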

Other observations

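Among 22 tested regulators of splicing outside both families, 1 rose and 4 fell, with a median log2 fold change of -0.07. Called genes were 22.7%, raised 4.55% and lowered 18.2%, against 32.1%, 16.2% and 15.9% of all genes. Of all genes at a mean of 20 CPM or more, 43.1% were called. Celf1, which antagonises the muscleblind proteins, averaged 78.2 ± 5.25 CPM in siNONO and 62.3 ± 3.89 CPM in siCtrl (0.33 ± 0.06, edgeR adjusted p = 0.000619). Rbfox1, a regulator of muscle and neuronal exons, was low and fell to 2.01 ± 0.478 CPM in siNONO, against 3.98 ± 0.628 CPM in siCtrl (-0.99 ± 0.18, adjusted p = 0.000929). Rbm24, a muscle splicing factor, fell to 1.98 ± 0.169 CPM in siNONO, against 3.26 ± 0.223 CPM in siCtrl (-0.71 ± 0.15, adjusted p = 0.00233). Both lay below a mean of 5 CPM. Celf2, a relative of Celf1 named after its value was seen, fell to 29.3 ± 0.470 CPM in siNONO, against 34.5 ± 0.0578 CPM in siCtrl (-0.24 ± 0.05, adjusted p = 0.00139). Without siCtrl 1 the counts were 1 raised and 5 lowered, and the fallen genes were partly others. Rbpms2 lost its call (-0.28, edgeR adjusted p = 0.135), and Mbnl2 (-0.21, adjusted p = 0.00761) and Tia1 (-0.18, adjusted p = 0.0162) gained one.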
